A study of Caenorhabditis elegans with 2 samples.

Results

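The 659 regions described here are the strong ChIP peaks of the transcription factor AHA-1 on the X chromosome of Caenorhabditis elegans. They were chosen by signal and chromosome: the list called from the pooled replicates holds 30000 peaks, the 3000 with the highest signal were taken, and the 659 of these that lie on X were kept. The other 2341 of the 3000 lie on the autosomes and serve as the comparison. AHA-1 was measured by chromatin immunoprecipitation followed by sequencing (ChIP-seq) in whole L4 larvae of strain OP124 (unc-119(ed3) III; wgIs124), an animal with an inserted eGFP-aha-1 transgene in an unc-119(ed3) background. The labels give the animals as pooled male and female. The target is listed as eGFP-aha-1, and the antibody carries the name aha-1. There were 2 biological replicates of this 1 group, with no other genotype or treatment. Which cells and which promoter express the transgene is not stated in those labels, and a whole animal mixes all its tissues. The lists hold no read counts, so the depth behind each peak is unknown. The control was not analysed here.

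AHA-1 is the worm ortholog of ARNT, the common partner of the bHLH-PAS family of transcription factors. It binds DNA as a dimer, with HIF-1 in the response to low oxygen, with AHR-1 in some neurons, and with CKY-1 in the pharynx. Dimers with an ARNT-type partner contact the half-site CGTG, so the letters ACGTG or GCGTG (on either strand) are called the ARNT core below. The X chromosome of C. elegans differs from the autosomes in that hermaphrodites carry a pair and males a single copy. In hermaphrodites a condensin-containing dosage compensation complex is recruited to sites on X that carry a GC-rich motif, spreads from them, and lowers X transcription.

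The 3 strongest X members lay in introns and in a promoter window, and these were found high in both replicates. The second strongest peak of the whole pooled list lay in an intron of ZK470.2 (chrX:4142179-4142406, ce11), with the nearest annotated start that of ZK470.4. Its signal, a value from the peak caller whose scaling is not given, was 167.3 in the pooled list. It was 90.1 in replicate 1 and 75.5 in replicate 2, which put the peak at rank 2 and rank 6 in the replicates. The third strongest (chrX:3116305-3116518) had its summit within a UTR exon, 165 bp downstream of a start of mai-1, the homolog of the mitochondrial ATP synthase inhibitor that shares an operon with the GAPDH genes gpd-2 and gpd-3. It had a signal of 164.4 in the pooled list and was at rank 3 in both replicates. A peak in an intron of H18N23.2 (chrX:17631000-17631228) had a signal of 146.0 and was at rank 8 in the pooled list and in both replicates.

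All 20 of the strongest X members, at pooled ranks 2 to 65, were ranked 3000 or better in both replicates, as were 28.1% of the 3000. The pooled rank is made from the same replicates, so this is a description. Among the 20 were the promoters of pccb-1 and pcca-1, the beta and alpha subunits of the mitochondrial enzyme propionyl-CoA carboxylase, at pooled ranks 23 and 46. The pccb-1 peak was at ranks 15 and 45 in replicates 1 and 2, and the pcca-1 peak at ranks 63 and 35. The promoter of sdha-1, the flavoprotein subunit of succinate dehydrogenase, was at pooled rank 42 and at ranks 37 and 55 in the replicates. The least even of the 20 was the peak at zfp-3, with rank 23 in replicate 1 and rank 551 in replicate 2.

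The windows of 61 bases around 6 of the 10 strongest summits outside UTR exons are shown because they hold the ARNT core on X in its various contexts. The window at serp-1.1 (pooled rank 20) also holds a core and is not shown. The windows shown are on the plus strand of the WBcel235 genome (the same assembly as ce11), with the core in capitals. CACGT and CACGC are the core on the other strand.
ZK470.4 at chrX:4142249-4142309: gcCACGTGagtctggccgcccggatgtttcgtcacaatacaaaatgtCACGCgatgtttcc
H18N23.2 at chrX:17631082-17631142: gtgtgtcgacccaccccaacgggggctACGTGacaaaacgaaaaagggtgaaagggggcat
pccb-1 at chrX:3090222-3090282: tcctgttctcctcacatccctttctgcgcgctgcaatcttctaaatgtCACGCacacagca
pcca-1 at chrX:7661368-7661428: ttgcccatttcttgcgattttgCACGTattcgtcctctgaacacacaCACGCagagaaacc
ZK470.2 at chrX:4142744-4142804: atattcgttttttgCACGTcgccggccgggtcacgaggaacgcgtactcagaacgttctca
H18N23.2 at chrX:17627574-17627634: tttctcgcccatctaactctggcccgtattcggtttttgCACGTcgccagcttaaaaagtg
The first window opens with the palindromic E-box CACGTG, which holds the core on both strands, and its summit has 5 cores within 50 bp. The last pair, from different genes far apart on X, share a stretch of 15 bases around the core.

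**Figure D1:**
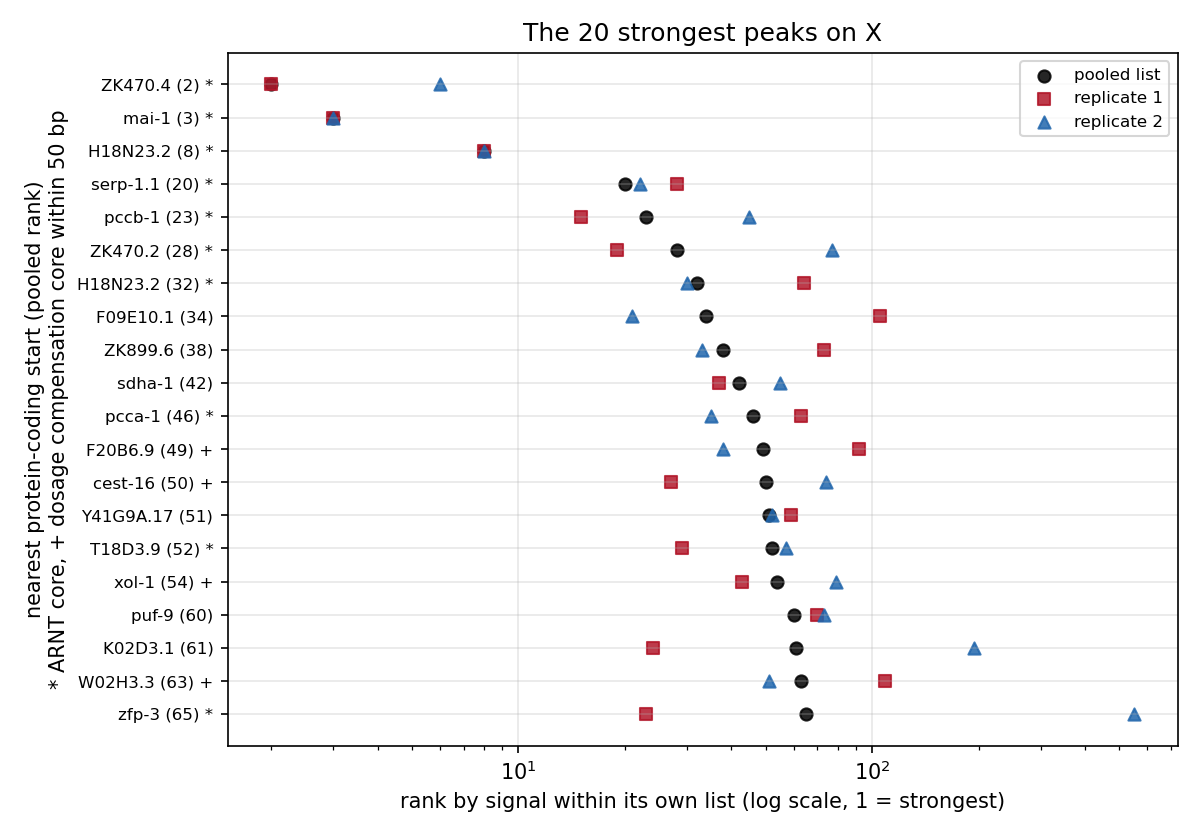
Rank by signal of the 20 strongest X peaks in the pooled list (black circles), replicate 1 (red squares) and replicate 2 (blue triangles), on a log axis where 1 is the strongest. An asterisk marks an ARNT core and a plus the dosage compensation core within 50 bp of the summit: 10 of the 20 carry the first, and 4 of the other 10 carry the second.

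The ARNT core lay within 50 bp of the summit in 225 X members (34.1%, exact Clopper-Pearson 95% interval 30.5 to 37.9%), against 675 autosomal peaks (28.8%, 27 to 30.7%). The odds ratio was 1.28 (95% interval 1.06 to 1.54), with an adjusted p of 0.0375 by a two-sided Fisher's exact test, with Benjamini-Hochberg adjustment over 8 motifs. The core occurs in 14.1% of all windows of that length on X and in 13.1% on the autosomes, and in 16.6% and 14.5% of the lower-ranked peaks of the list on X and on the autosomes. The difference did not pass the test in the list of either replicate alone (odds ratios 1.16 without replicate 1 and 1.19 without replicate 2), nor with 1 peak kept per 2 kb (1.22). It did not pass among the 1000 strongest peaks (1.06) either, nor among the peaks ranked 3000 or better in both replicates (1.11).

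The share with the ARNT core was higher in stronger peaks, on X and on the autosomes. Of the 20 strongest X members 10 had a core, against 37 of the 44 autosomal peaks at pooled ranks 2 to 65 (84.1%). At pooled ranks 67 to 517 the shares were 49.2% on X and 45.3% on the autosomes. At ranks 535 to 1238 they were 37.0% and 33%, and at ranks 1241 to 2997 they were 27% and 21.5%. These strata were cut after the signals were seen, and the differences within them were not tested.

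**Figure D2:**
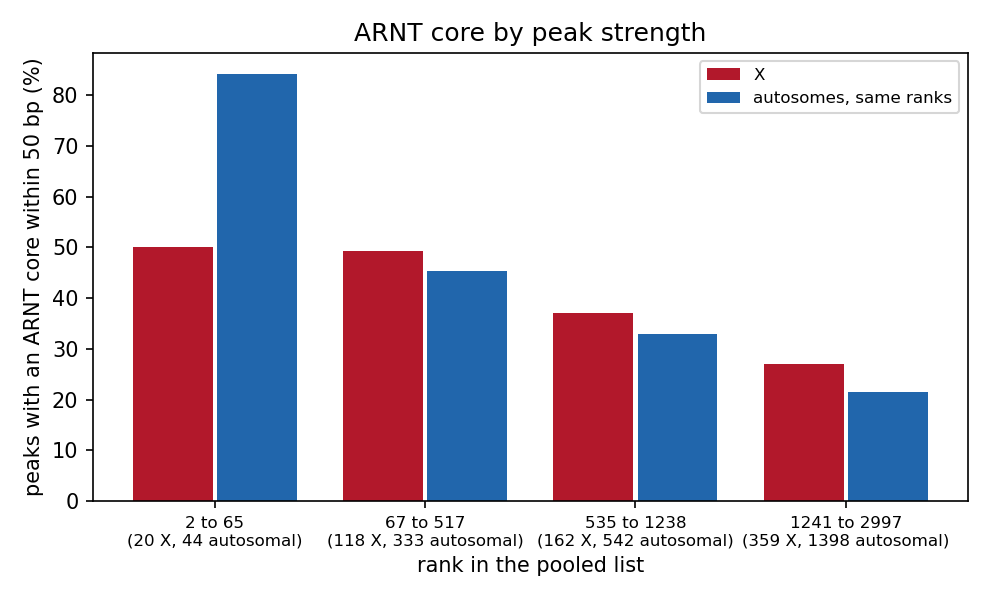
Share of peaks with an ARNT core within 50 bp of the summit (percent), for X peaks (red) and autosomal peaks (blue) in 4 ranges of pooled rank, with the number of peaks in each. The shares fall with rank in both, and only the strongest range puts X (10 of 20) below the autosomes (84.1%).

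The letters of the ARNT core are contained in 3 further motifs searched. The E-box CACGTG lay at 5.16% of X members and 3.50% of autosomal peaks (adjusted p = 0.133, the same exact test), against 1.32% and 1.74% of all windows. TACGTG, the core of the HIF-1 site, lay at 5.77% and 4.27% (exact test, adjusted p = 0.183), and TGCGTG, the core of the AHR-1 site, at 6.68% and 4.74% (adjusted p = 0.133). TGCGTG passed the exact test in 4 of the 11 other settings run, among them the list of replicate 1 alone and the wider motif windows. The 11 include a setting that alters only the dosage compensation motif and leaves this search unchanged. All windows of X and of the autosomes hold TACGTG at 1.97% and 1.91% and TGCGTG at 1.99% and 1.64%. The GA repeat GAGAGA lay at 18.2% of X members and 20% of autosomal peaks, both above the 4.91% and 5.24% of all windows. TGATAA, bound by GATA factors, and TGTTTAC, bound by FOXO factors such as DAF-16, lay at 9.10% and 2.12% of X members, and at 8.03% and 1.32% of autosomal peaks. In all windows these were 9.96% and 1.55% on X, and 9.22% and 1.03% on the autosomes. The adjusted p-values of these last 3 motifs were 0.363, 0.379 and 0.195. Among X members with an ARNT core the nearest one lay a median of 19 bp from the summit, against 20 bp in autosomal peaks.

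The motif with the largest odds ratio of the 8 was the core of the dosage compensation recruitment motif, GCGCAGGG, read on both strands. It lay within 50 bp of the summit in 14 X members (2.12%, exact 95% interval 1.17 to 3.54%) and in 0 of the 2341 autosomal peaks. The exact 95% interval for that count of 0 reaches an autosomal share of 0.157%, for counting error only. The exact p was 5.46e-10 and the adjusted p 4.37e-09 (Fisher's exact test, two-sided, over the 8 motifs). It holds neither form of the ARNT core. It is rare, in 0.0388% of all windows on X and 0.0263% on the autosomes, and lay at 4 of the 5150 lower-ranked X peaks and at 7 of the 21850 lower-ranked autosomal peaks. The test was passed in all 11 other settings run, the list of each replicate alone included.

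X members held a large share of all copies of the core on X. X carries 81 copies (4.57 per Mb) and the autosomes 233 (2.82 per Mb). Of the copies on X 16 (19.8%) lay within 50 bp of a member's summit and 25 (30.9%) lay inside a member, while 36 (44.4%) lay inside any peak of the list. Of the autosomal copies 0 lay within 50 bp of a summit of the 3000, 3 (1.29%) lay inside a peak of the 3000, and 19 (8.15%) lay inside any peak of the list. With the window widened to 150 bp on either side, 20 X members and 3 autosomal peaks held it.

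The members with the dosage compensation core stood high in the list and in both replicates. Their median pooled rank was 98.0, and 8 of the 14 were among the 31 strongest X members. The authors' list thresholded by irreproducible discovery rate (IDR) consists of the 530 strongest peaks of the pooled list, so being in it restates the pooled rank. It holds 138 X members (20.9%) and 17.7% of the 3000, and 9 of the 14 are in it. In both replicates 10 of the 14 ranked 3000 or better and 8 ranked 1000 or better. Over all X members these shares were 31.3% and 16.5%. The peak nearest F20B6.9 had signals of 25.5 and 41.7 and was at ranks 92 and 38 in replicates 1 and 2. The peak in an intron of mom-1, the Porcupine homolog of the Wnt secretion pathway, had signals of 37.4 and 30.7 and ranks 27 and 74. A peak 4870 bp upstream of xol-1, the switch gene that directs male development when it is active, had signals of 33.8 and 29.8 and ranks 43 and 79. The peak nearest W02H3.3 had signals of 24.0 and 35.9 and ranks 109 and 51. These 4 were even between the replicates. The peak at T24D8.6 was not, with rank 21820 in replicate 1 and rank 570 in replicate 2, nor was that at gcc-1, with ranks 1512 and 10681.

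The ARNT core was found at only 2 of these 14 members, those at R04E5.9 and Y15E3A.5. Of the 14 summits 7 were intergenic outside promoter windows, 5 were in a promoter window, 1 was in an intron and 1 in a coding exon of the polyketide synthase gene pks-1. None was near a tRNA gene. Of the 10 members among the strongest 20 with no ARNT core, 4 had the dosage compensation core within 50 bp, and the peak in an intron of Y41G9A.17 (signals 29.8 and 35.4, ranks 59 and 52) had it within 150 bp. No protein of the dosage compensation complex was measured here, and whether its presence on X plays a part in these signals was not tested.

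Copies of the core at 9 of these members are shown because the flanks of most of those shown are alike beyond the letters searched. The last one is an example that differs. Among the copies left out, the first in the mom-1 intron and those at C41A3.2, T24D8.6, R11.3 and Y15E3A.5 also differ, without TC just before the core. Each window of 40 bases is on the strand that reads GCGCAGGG, in capitals, from the same genome, and the set was picked after the sequences were seen.
F20B6.9, minus strand, chrX:4209250-4209289: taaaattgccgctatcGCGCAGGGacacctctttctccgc
cest-16 (mom-1 intron), plus strand, chrX:6296560-6296599: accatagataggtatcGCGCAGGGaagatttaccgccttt
xol-1, minus strand, chrX:8036385-8036424: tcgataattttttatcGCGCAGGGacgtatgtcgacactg
xol-1, plus strand, chrX:8036419-8036458: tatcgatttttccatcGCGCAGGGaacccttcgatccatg
W02H3.3, minus strand, chrX:11094210-11094249: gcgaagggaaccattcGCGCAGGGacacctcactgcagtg
gtr-1, plus strand, chrX:806658-806697: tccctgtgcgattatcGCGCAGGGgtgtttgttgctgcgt
ins-39, plus strand, chrX:1345040-1345079: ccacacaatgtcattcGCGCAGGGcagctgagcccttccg
nspc-17, minus strand, chrX:14525884-14525923: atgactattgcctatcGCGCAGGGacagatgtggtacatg
col-185, plus strand, chrX:13514542-13514581: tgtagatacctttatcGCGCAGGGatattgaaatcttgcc
gcc-1, minus strand, chrX:3159710-3159749: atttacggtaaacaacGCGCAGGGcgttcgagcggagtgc
Over the 16 copies within 50 bp of a summit, the base before the core was C in 12 and the base before that T in 12. These were not always the same copies. The base after the core was A in 10. Among all 81 copies on X, which include the 16, the same bases stood at those positions in 33, 38 and 34. The bases were taken as the commonest among the 16, which favours a higher share there in advance, and the difference was not tested. The xol-1 peak holds a pair of copies that face opposite ways, and the mom-1 peak holds a second copy 28 bp away. The peaks at F20B6.9 and W02H3.3 share a stretch of 17 bases across the core.

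**Figure D3:**
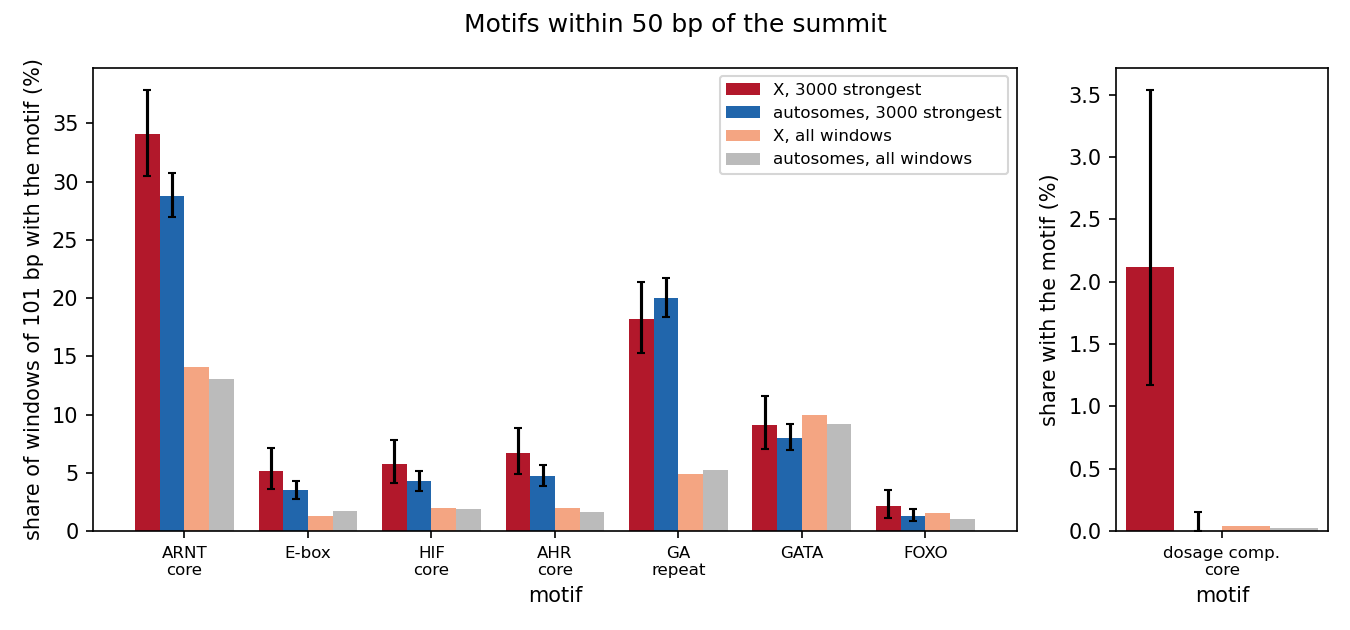
Share of peaks or windows of that length with each motif (percent), for X peaks (red), autosomal peaks (blue), all X windows (orange) and all autosomal windows (grey), with exact 95% intervals on the peaks. The dosage compensation core has its own axis, at 2.12% of X peaks and 0 autosomal peaks, and the ARNT core stands at 34.1% and 28.8%.

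Peaks at tRNA genes formed a larger share of the X members than of the autosomal peaks. Within 200 bp of an annotated tRNA gene lay 69 X members (10.5%), against 66 autosomal peaks (2.82%), with an odds ratio of 4.03 (95% interval 2.84 to 5.72) and an adjusted p of 1.25e-13 (Fisher's exact test, two-sided, over 5 kinds of small RNA gene). X carries 276 of the 612 annotated tRNA genes (45.1%) on 17.7% of the bases. Counted per gene, 79 of the 276 tRNA genes on X (28.6%) and 70 of the 336 on the autosomes (20.8%) had a peak of the 3000 within that distance. Among the lower-ranked peaks the shares near tRNA genes were 1.71% on X and 0.522% on the autosomes.

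The strongest X member at tRNA genes lay at M02F4.t2 and M02F4.t1, with a signal of 46.48, pooled rank 104 and ranks 88 and 209 in the replicates. It was followed by the peaks at C53C7.t2 and C53C7.t1 (pooled rank 143), W03G11.t1 (225), ZK563.t1 (247) and R11.t1 (271). Of the 69 members 21 ranked 3000 or better in both replicates and 13 were in the IDR list. Both counts are close to the shares over all X members, 31.3% and 20.9%. The ARNT core lay at 30.4% of them, against 27.3% of the autosomal peaks at tRNA genes.

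Other small RNA genes were at fewer X members. Small nucleolar RNA genes lay near 2 X members (0.303%) and 63 autosomal peaks (2.69%, adjusted p = 6.56e-05, same exact test), and 33 of the 346 such genes are on X. One of the 2 is D2021.6, at the sdha-1 peak. Small nuclear RNA genes lay near 0 X members and 16 autosomal peaks (same exact test, adjusted p = 0.0388), with 3 of the 129 genes on X. Genes of piRNAs lay near 2 and 52 (adjusted p = 5.81e-04), with 162 of 15363 on X. Counted per gene the shares run the other way, with a peak at 1.23% of the piRNA genes on X and at 0.579% of those on the autosomes. Per gene the small nucleolar RNA shares were 6.06% on X and 20.4% on the autosomes, those of small nuclear RNA genes 0 of 3 and 10.3%, and those of microRNA genes 2.70% and 6.95%. MicroRNA genes lay near 2 X members, at cel-mir-56 and cel-mir-1829b, and near 11 autosomal peaks (same exact test, adjusted p = 0.746). The differences at small nuclear RNA and piRNA genes passed in 3 and 5 of the 8 other settings run.

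X members lay outside genes and promoter windows more often than the autosomal peaks, and less often in windows shared by several genes. The closest start of a protein-coding gene was a median of 1058 bp away on X and 694 bp on the autosomes, and 32.6% against 22.5% lay more than 2 kb away. The promoter window of a gene reached 1000 bp upstream and 500 bp downstream of each of its annotated starts. Summits outside genes and windows made up 208 X members (31.6%) and 542 autosomal peaks (23.2%), with an odds ratio of 1.53 (95% interval 1.27 to 1.85, adjusted p = 3.68e-05 by Fisher's exact test, two-sided, over 5 classes). Summits in the windows of 2 or more genes made up 25 X members (3.79%) and 328 autosomal peaks (14%), with an odds ratio of 0.242 (0.160 to 0.367, adjusted p = 1.65e-14 by the same exact test).

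Both differences were also present in the makeup of the chromosomes. Intergenic sequence outside windows covers 32.2% of X and 23.4% of the autosomes, and the windows of 2 or more genes cover 1.36% and 4.21%. X members were thus at 0.980 times the share of bases in the intergenic class, against 0.991 times for the autosomal peaks, and at 2.79 and 3.32 times in the windows of 2 or more genes. The lower-ranked peaks of the list had the same directions, with 30.8% of X and 22.3% of autosomal peaks intergenic, and 1.57% and 5.15% in windows of 2 or more genes.

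The remaining classes did not pass the test. The window of 1 gene held 262 X members (39.8%) and 38.4% of autosomal peaks (odds ratio 1.06, 95% interval 0.885 to 1.26, exact test, adjusted p = 0.556). Introns held 121 X members (18.4%) against 16% (1.18, 0.941 to 1.48), and exons 43 (6.53%) against 8.37% (0.764, 0.543 to 1.08), both with an adjusted p of 0.193. Whether the odds ratio of a class differed between the 3000 and the lower-ranked peaks was tested by logistic regression, and 0 of the 5 classes had an adjusted p under 0.05. Unadjusted, 1 class was under 0.05. This was the window of 1 gene, where the odds ratio in the 3000 was 1.26 times that in the lower-ranked peaks. Its Wald p was 0.0164, and 0.0822 after adjustment.

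**Figure D4:**
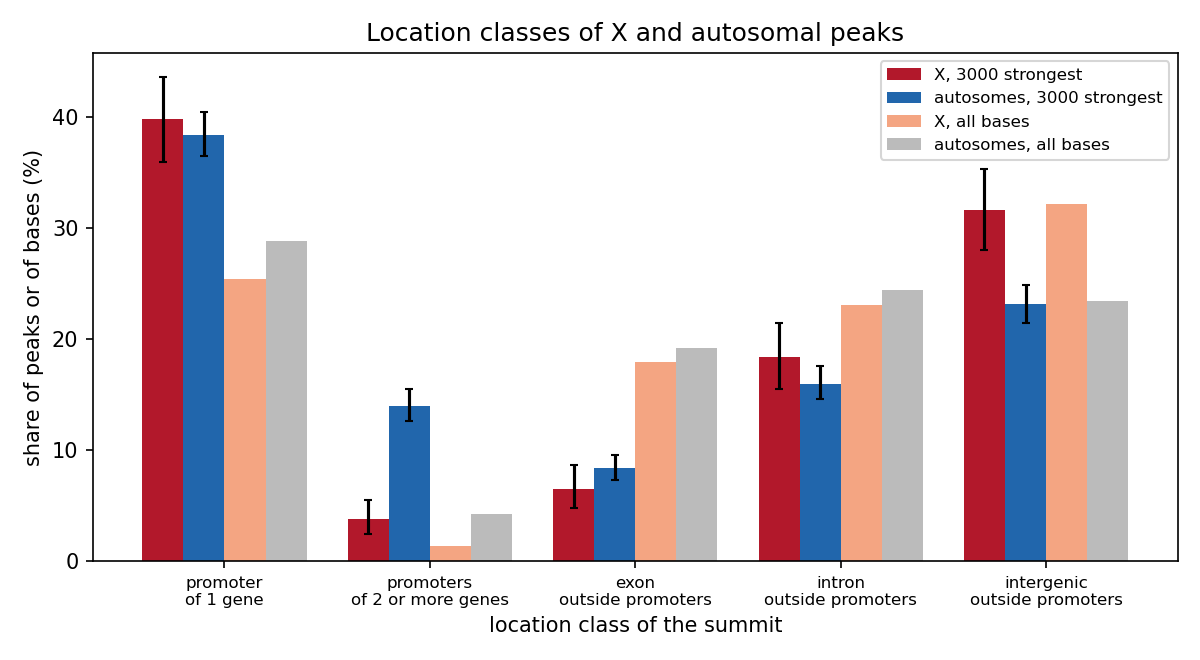
Share of summits in each location class (percent) for X peaks (red) and autosomal peaks (blue) of the 3000 strongest, with exact 95% intervals, beside the share of bases of that class on X (orange) and on the autosomes (grey). The intergenic class is higher on X (31.6% against 23.2%) and the windows of 2 or more genes lower (3.79% against 14%), as in the bases themselves.

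Of the 2731 protein-coding genes on X, 297 (10.9%) had a member summit in their promoter window, against 1458 of the 17242 autosomal genes (8.46%). That 10.9% is the background for the gene groups below, which were counted over their X-linked members only. The gene groups are small, and no test was made of them.

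Transcription factors of the bHLH family, to which AHA-1 belongs, had members at 3 of 9 X-linked genes. The strongest was at mdl-1, which codes for a Mad-like partner of Max-type proteins, with a summit 111 bp upstream of the start, a signal of 53.42, pooled rank 75, and ranks 45 and 82 in the replicates. The others were at mxl-3, a Max-like factor that regulates fat metabolism on fasting (rank 617), and at hlh-19 (rank 2124, with no peak in replicate 1). mdl-1 was also the gene with the most members nearest to it, 11 in all over 11744 bp, of which 4 were in the IDR list and 5 had an ARNT core. Over all X members 20.9% were in the IDR list and 34.1% had an ARNT core. The most members nearest to one autosomal gene was 14.

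Several other genes had rows of members. ZK470.2 was the nearest gene of 8 members over 16322 bp, of which 3 had a core, in addition to the strongest X member, whose nearest start is that of ZK470.4. H18N23.2 had 7 over 15190 bp, 6 of them with a core and 4 in the IDR list. lin-14, which codes for a nuclear protein that times larval development, also had 7, over 18428 bp, but the best was at rank 569 and 1 had a core. mxl-3 had 6, of which 4 had a core. Beside these counts, a core was found at 34.1% of all X members and 20.9% were in the IDR list. In all, 13 of the 506 genes nearest to an X member had 4 or more members, against 47 of 1839 on the autosomes. Where neighbouring members overlap they can match the same replicate peak, as the mdl-1 members at ranks 75 and 633 do.

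Heterochronic genes, which time the larval stages, had members at 3 of 5 X-linked genes. These were kin-20, a casein kinase 1 homolog related to Doubletime (rank 388, ranks 193 and 4302 in the replicates), lin-14 (569, with 2704 and 626) and alg-1, an Argonaute of the microRNA pathway (1660, with 1865 and 28641). The replicates were farthest apart at alg-1 and kin-20. hbl-1 had no member in its window. daf-12, a steroid receptor, had none there either, but had a member in an intron 1695 bp from a start, at pooled rank 144 and ranks 91 and 207.

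The glycolytic genes on X had members at 2 of 4 loci, and those were the neighbours mai-1 and gpd-2 of one operon, the first of which is no glycolytic enzyme. gpd-2 (pooled rank 1467) was at rank 20466 in replicate 1 and rank 1934 in replicate 2. gpd-3 and pfk-1.1, which codes for phosphofructokinase, had none in the window, though a member at rank 463 lay 1575 bp upstream of pfk-1.1. Of the genes of the HIF-1 pathway, none of the 3 on X (vhl-1, cysl-1 and cdo-1) had a member in the window. vhl-1 codes for the E3 ligase subunit that directs HIF-1 to degradation, and its best peak was at rank 23634. A member at rank 358 lay 1004 bp upstream of a cdo-1 start, just outside the window, in a UTR exon of lgl-1, at ranks 126 and 5159 in the replicates.

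Genes of sex determination and dosage compensation had members at 2 of 7. They were ceh-39, a homeodomain protein that counts among the X signal elements (rank 689, with 4194 and 394), and sdc-2, needed for loading the complex on X (rank 1175, with 955 and 1545). xol-1, sex-1, fox-1, sdc-1 and dpy-22 had none in the window, and the peak upstream of xol-1 described above lies beyond it. Of 8 insulin and dauer genes 2 had a member. They were akt-2, a kinase of the insulin pathway (rank 480, with 24541 and 257), and ncr-1, an NPC1 homolog (rank 1493, with rank 612 in replicate 1 and no peak in replicate 2). The 6 without were daf-3, daf-9, daf-12, sgk-1, pdk-1 and ist-1.

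Nuclear hormone receptors had members in the window at 5 of 23 X-linked genes. There nhr-40 (rank 438) and nhr-48 (rank 730) were the strongest, followed by nhr-1 (889) and nhr-32 (2176). Stronger members lay outside the windows. One was in an intron of nhr-3, 1863 bp from a start, at pooled rank 135 and ranks 166 and 137 in the replicates. Another lay 1634 bp upstream of nhr-32, at rank 470. Neuropeptide genes had members in the window at 3 of 34, which were the insulin-like gene ins-39 (rank 102), nlp-76 and ins-9. The ceh homeodomain genes had 1 of 18, ceh-39, and the ligand-gated channels 1 of 28, glr-6. Of the 2 ribosomal protein genes on X, rpl-11.2 had one at rank 85, with ranks 33 and 604 in the replicates. Collagens (27), muscle structure genes (10), twk potassium channels (10) and vitellogenins with their regulators (6: vit-1, vit-2, vit-3, vit-4, vit-5 and ceh-60) had none. No gene of the fatty acid desaturation and elongation list is on X.

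Strong peaks were found along the whole of X, at 37.2 per Mb against 28.4 on the autosomes, among which chromosome III had 37.9. X held 22% of the 3000 and 19.4% of the list, with 17.7% of the bases and 13.7% of the protein-coding genes. In bins of 1 Mb the count was lowest in the first 2, with 20 and 21 members, and highest between 13 and 14 Mb, with 56. Per 100 gene starts the bins had between 13.6 (the second bin) and 41.7 members (the 17th, which has the fewest starts of the full bins, 108). On either side of the midpoint of X there were 299 members to the left and 360 to the right. The widest gap between summits was 229269 bp, with fbxb-58 and ceh-39 at its ends. Another member lay within 2 kb of 25.3% of the X members, against 29.7% of the autosomal peaks.

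Signal and chromosome chose the members, so the levels are given as a description. The pooled signal had a median of 16.6 on X and 16.2 on the autosomes, with highest values of 167 and 368. The IDR list held 20.9% of the X members and 392 autosomal peaks (16.7%). At the threshold the last members were those at hlh-29, W03G11.4 and ddr-1, with signals of 12.76, 12.75 and 12.75. The first X peaks outside were those at F14B8.5, H40L08.3 and nkb-3, with 12.74, 12.74 and 12.73. Those 6 peaks had ranks from 1113 to 26323 in the replicates, and 2 of them had no peak in one of the replicates.

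The replicates were read through the best-ranked peak that overlapped a member by at least 1 bp. They are part of the pooled reads, so this too is a description. Replicate 1 had such a peak for 575 X members, with a median rank of 1783, and for 2000 autosomal peaks, with a median of 2122. Replicate 2 had one for 613 X members (median rank 1717) and for 2152 autosomal peaks (median 1830). Rank 3000 or better in both was reached by 206 X members (31.3%) and 637 autosomal peaks (27.2%), and by 28.1% of the 3000 together. In neither replicate was it reached by 122 X members (18.5%), against 20.8% on the autosomes.

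The share ranked 3000 or better in both replicates was lower among members with weaker pooled signal. The pooled signal is made from the same replicates, so this fall is favoured in advance and is no measure of reproducibility. Of the 118 X members at pooled ranks 67 to 517, 86.4% ranked 3000 or better in both, while of the 162 at ranks 535 to 1238 the share was 43.2%, and of the 359 below these it was 3.90%. Over the 531 X members matched in both, Spearman's rho of the ranks was 0.290, against 0.235 over 1820 autosomal peaks. These peaks were chosen by pooled signal and kept only where matched, so rho does not measure the agreement of the replicates over their whole lists. The ranks were apart by a factor of 10 or more at 21.8% on X and 21.6% on the autosomes. The largest differences were at sra-39 (ranks 1676 and 29821), tps-1 (532 and 28304), F53B1.2 (28468 and 893), got-1.2 (29431 and 1921) and R11G1.2 (27432 and 247), in replicates 1 and 2. Their pooled ranks ran from 991 to 2379.

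**Figure D5:**
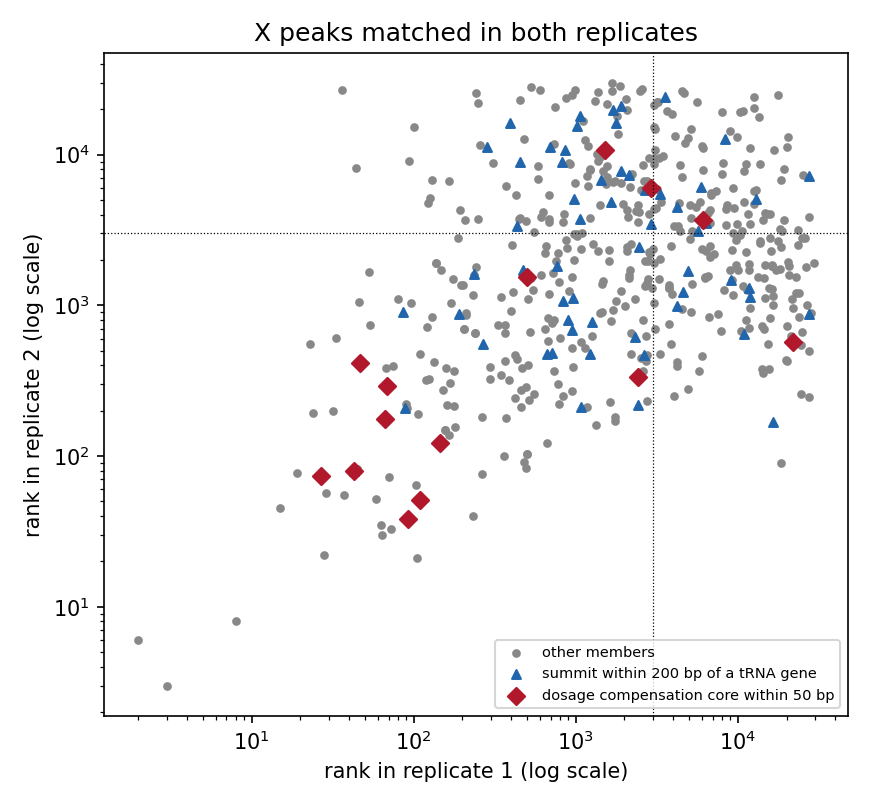
Rank in replicate 1 against rank in replicate 2 (log axes, 1 is the strongest) for the 531 X peaks matched in both, with dotted lines at rank 3000. Of the peaks with the dosage compensation core (red diamonds) 8 of 14 rank 1000 or better in both, against 16.5% of all X members. Peaks at tRNA genes (blue triangles) are spread over the ranks.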

How the data were processed

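The lists were deposited by the authors in narrowPeak form. Per the labels and the descriptions deposited with the samples, peaks were called for each replicate and for the pooled replicates against a control, on ce11 and ce10, with library sizes of 150 to 350 bp. Not given in the sources used here are the aligner, the caller, its settings and the scaling of the signal. The signal of a peak is a value from the caller that the authors deposited, and it was used only to rank peaks of one list. The deposited −log10 q-values were used once, for an alternative ranking. How strongly depth limits a peak cannot be read from such values, and intervals cover counting error only.

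Summits were set on the WBcel235 genome and the genes of Ensembl release 115 in 5 location classes. The members, gene lists, 8 motifs and tests were chosen with earlier results of these data known. Peaks are the units of Fisher's exact tests (scipy 1.17.1) and of the logistic regression, and peaks of one list are not replicates, so no p-value measures the spread between animals or cultures. Adjustment was by Benjamini-Hochberg within each family, with calls at 0.05. The steps were tested on simulated data.

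Named are the genes nearest the 20 strongest X members, the 5 strongest members at each kind of small RNA gene, up to 4 genes per list (in lists of up to 8 also those without a member), the 5 largest rank differences, the 3 X peaks on either side of the threshold, and the ends of the widest gap. The nearest gene need not be the one regulated. Genes named for rows of members, members with the dosage compensation core, and those named as lying outside a window were chosen after their values were seen. Alternatives were other numbers of top peaks, each replicate's list alone, other windows and distances, 1 peak per 2 kb, leaving out peaks near small RNA genes, peaks high in both replicates, the ce10 list, ranking by q-value and another match of replicates. Added after seeing the data were a motif window of 150 bp, the dosage compensation core without its first base, and leaving out peaks that hold it.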

Additional observations from a re-analysis of the deposited data

How the results depend on the processing

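With the 1000 highest peaks, 1 motif and 2 kinds of small RNA gene passed the test (2 and 4 in the report), the share of X was 23.8% and genes with a member 4.65%. With the 6000 highest, exons passed (odds ratio 0.753), 1 class differed from the lower-ranked peaks, and genes with a member were 18.2%. In the lists without replicate 1 and without replicate 2, in that order, the odds ratio of the window of 1 gene was 0.905 and 1.08, that of exons 0.767 and 0.540 (which passed), of the E-box 0.919 and 0.987, of TGATAA 0.772 and 0.988, and of microRNA genes 0.221 and 1.05. TGTTTAC passed without replicate 1 (2.61), and TGCGTG without replicate 2 (1.61). There 0 and 2 classes differed from the lower-ranked peaks, and genes with a member were 9.19% and 10.3%. The narrower promoter window (500 bp up, 200 bp down) gave 0.913 for the window of 1 gene, 0.690 for exons (passed) and 7.87% of genes, and the wider one (2000 bp up) 1.35 for introns (passed) and 14% of genes. With 1 peak per 2 kb (2555 peaks, 572 on X) 1 motif passed and 1 class differed. Among the 843 peaks high in both replicates 1 motif and 2 kinds of small RNA gene passed, and the share of X was 24.4%. TGATAA turned to 0.638 (1000 highest), 0.799 (both replicates), 0.843 (100 bp) and 0.942 (150 bp), and GAGAGA to 1.02 (150 bp). Matching tRNA and other genes within 50 bp left 2 kinds. Matching summits within 100 bp left 25.8% of X members ranked 3000 or better in both replicates.

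The intergenic class, the windows of 2 or more genes, tRNA and small nucleolar RNA genes and the dosage compensation core passed in every setting run for them (10, 10, 8, 8 and 11), with the core at an odds ratio of 24.4 at 150 bp and 6.39 without its first base. The ARNT core passed in 6 of 11 settings. Both counts include the dosage compensation core without its first base, a setting that leaves the ARNT search unchanged and so repeats the main result. TGCGTG also passed with the 6000 highest (1.48) and with motif windows of 100 bp (1.66) and 150 bp (1.65). Fewer peaks entered in several of these settings, and the cause of the other changes was not tested. No paired analysis was possible because there was 1 group.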

Other observations

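A few metabolic genes stood out among the stronger X members on reading down the list, so they were chosen after their values were seen and carry no test. aak-2, a catalytic subunit of the energy sensor AMPK, had a member in an intron 951 bp from a start (signal 37.19, pooled rank 180, ranks 53 and 1672 in replicates 1 and 2). A member with 3 ARNT cores lay 4776 bp upstream of aakg-3, a gene of the gamma subunit family of the same kinase (pooled rank 170, ranks 263 and 181). The promoters of sucl-1, a succinyl-CoA ligase subunit (pooled rank 148, ranks 107 and 190), and vha-12, a subunit of the vacuolar proton pump (pooled rank 128, ranks 151 and 274), were even between the replicates, and each had an ARNT core. sams-1, which makes S-adenosylmethionine, had 4 members nearest to it. The strongest lay outside promoter windows, in a UTR exon 3778 bp downstream of the nearest start, at pooled rank 113, with ranks 266 and 76 and 2 cores.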
